A study of Mus musculus with 20 samples.

Results

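Rab GTPases are the small G proteins that direct membrane traffic, and their genes were taken from the expression tables by symbol (Rab, a number and at most a letter and a digit). The rule found 57 genes among the 22556 of the stage matrix, and 50 of them reached the level needed for testing. The study measured gene expression in serotonin (5-HT) neurons and the binding to chromatin of Pet-1, the ETS-family transcription factor encoded by Fev, which these neurons need to take on their transmitter identity. All mice were C57BL/6, and EYFP-positive neurons were sorted by flow cytometry. At E15.5 (E for embryonic day) there were 3 libraries of Pet-1-/- and 3 of wild-type neurons amplified with the Clontech SMARTer kit, and another 3 and 3 amplified with the NuGEN Ovation kit. Wild-type neurons were also profiled with the Clontech kit at E11.5 and on postnatal days 1 to 3 (PN), with 3 libraries each. Pet-1 binding came from 1 Myc immunoprecipitation and 1 input of embryonic hindbrain. For these the protocol gives embryos that lack Pet-1 and carry the transgenes ePet-mycPet-1 and ePet-EYFP, another field calls them wild type, and the last age is E14.5 in one place and E15.5 in another. The binding is therefore that of a tagged transgene driven by an ePet construct. The labels do not settle whether the endogenous factor was present as well. Nothing in the labels says that libraries of a group came from separate animals, so the p-values measure only the spread between these libraries, which may be technical.

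A Rab switches between a GTP-bound form that sits on a membrane and recruits effectors, and a GDP-bound form that is extracted to the cytosol. Exchange factors load GTP, GTPase activating proteins trigger its hydrolysis, and carrier proteins shuttle the prenylated Rab between membranes. In neurons Rabs carry receptors and vesicle precursors along the axon, sort endosomes, and, through Rab3 and Rab27, hold vesicles of transmitter and peptide ready for release.

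The sorted libraries carried the defining transcripts of serotonin neurons, and the markers of other cells differed by stage. The 7 serotonin markers summed to 903 to 1336 FPKM at E11.5, 430 to 519 at E15.5 and 471 to 720 in PN, and none was at 0 in a whole stage. Of these markers 5 fell at E15.5 against E11.5. The 7 astrocyte and radial glia markers summed to 156 to 230 FPKM at E11.5, 959 to 1778 at E15.5 and 371 to 1061 in PN. Most of this sum was Fabp7, which averaged 178, 1347 and 563 FPKM. Of 6 tested, 4 rose and 0 fell at E15.5 against E11.5, while in PN against E15.5 Aqp4 rose and Fabp7 fell. The 9 microglia and macrophage markers summed to 8.21 to 14.47 FPKM at E11.5, 9.70 to 27.6 at E15.5 and 129.9 to 1274 in PN, where PN library b held the 1274. The sums of FPKM per library lay between 630091 and 919994, and 9614 to 11280 genes per library had at least 1 FPKM. FPKM carry no read numbers, so the depth is unknown. In sorted bulk RNA a change in the mix of cells and a change in RNA per cell cannot be told apart.

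Rab transcripts took a growing share of the libraries with age, and Rab3a led at every stage. Summed over the 57 genes, Rab transcripts made up 0.209% to 0.22% of all FPKM at E11.5, 0.312% to 0.371% at E15.5 and 0.405% to 0.429% in PN. Rab3a, the vesicle-associated Rab that regulates transmitter release, had 377, 265 and 198 FPKM at E11.5, 483, 430.1 and 329 at E15.5 and 1021, 1119 and 769 in PN. All PN libraries lay above all earlier ones, while the E11.5 and E15.5 libraries overlapped. Without Rab3a the sum of the other 56 genes was 1474 ± 84.1 FPKM at E11.5, 2013 ± 154 at E15.5 and 2000.0 ± 190 in PN (SD, n = 3 each), so those 56 had nearly the same sum at E15.5 and in PN.

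The 4 genes next in mean level belonged to 4 different steps of traffic. Rab7, which brings late endosomes to lysosomes, had 60.9, 96.7 and 109.5 FPKM at E11.5, 290.2, 293 and 227 at E15.5 and 173, 232 and 191 in PN. Rab4b, a Rab of rapid endosomal recycling, had 201, 216 and 118 FPKM at E11.5, 228, 186 and 106 at E15.5 and 201, 255 and 159.6 in PN. Its stages overlapped throughout and no test called it. Rab11a, of the recycling endosome, had 134, 97.2 and 123 FPKM at E11.5, 116, 90.3 and 194 at E15.5 and 175, 235 and 284 in PN. Rab33a, a Golgi-linked Rab known in neurons from axon outgrowth, had 138, 68.6 and 73.1 FPKM at E11.5, 263, 258 and 207 at E15.5 and 108, 167 and 144 in PN. At the other end 7 genes were too low to test, namely Rab17, Rab19, Rab20, Rab25, Rab37, Rab38 and Rab44, and Rab17 and Rab44 were listed at 0 in all 9 libraries.

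**Figure D1:**
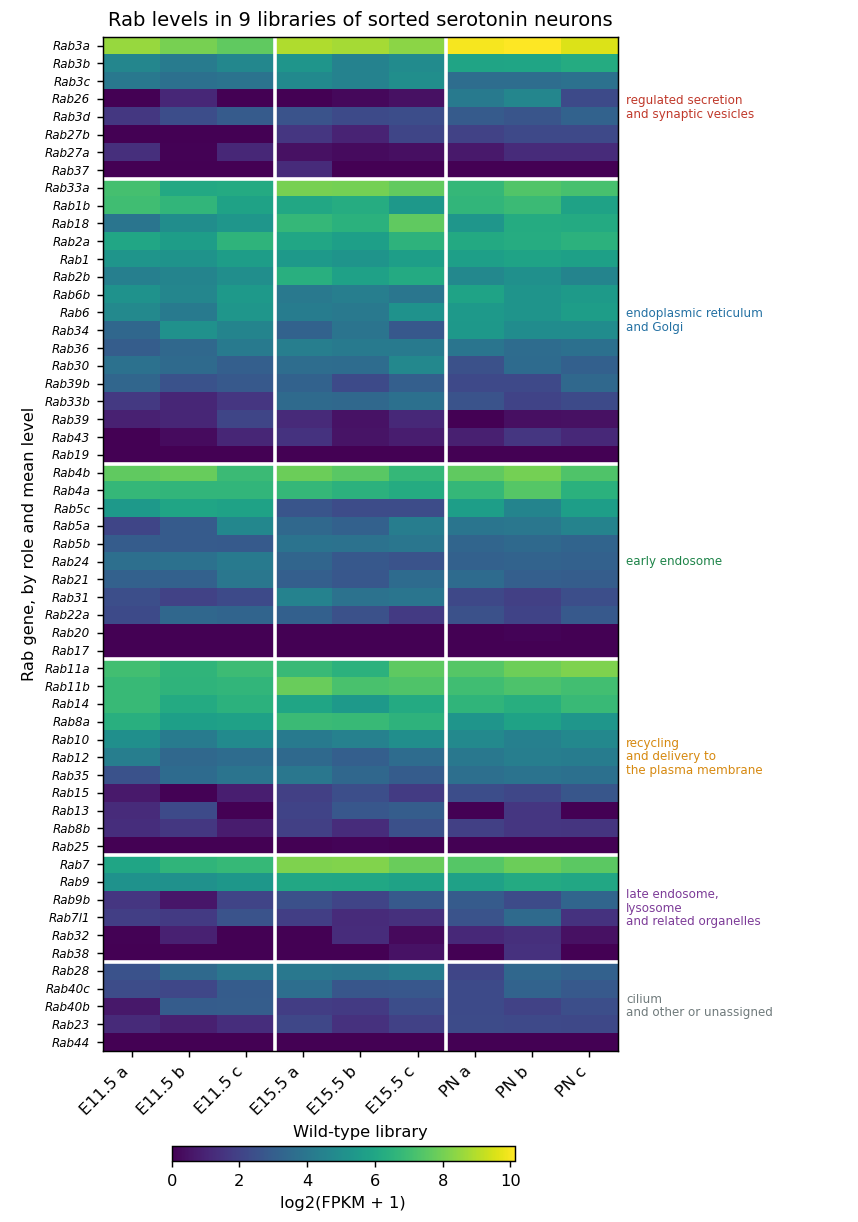
Level of the 57 Rab genes in the 9 wild-type libraries, as log2(FPKM + 1) in colour, with genes down the page grouped by role and ordered by mean level, and libraries from E11.5 to PN across. Rab3a is the brightest row at every stage, and the E15.5 columns are dark for Rab5c between brighter E11.5 and PN columns.

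Binding of mycPet-1 was listed at 13 Rab genes. The authors' list of 4934 peaks, on mm10, had a peak within 5 kb of the start site or in the gene span of 13 of the 50 tested Rab genes (26.0%), against 36.7% of 10439 tested genes. Within 1 kb of the start site the shares were 22.0% and 30.4%, and for peaks scoring above the median they were 20.0% and 20.3%. The 13 were Rab3a, Rab5b, Rab8a, Rab10, Rab11a, Rab13, Rab23, Rab24, Rab27a, Rab28, Rab33b, Rab34 and Rab40c. Rab33b had the highest score, 472.39 in the units of the authors' list, at chr3:51483404-51484622 around its start, and this peak ranked 218 of all. Rab24 followed with 248.39, Rab8a with 192.36 and Rab34 with 127.0, the last about 5 kb upstream. The peak at Rab3a scored 51.49, close to the lowest score of the list, 50.

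Start-site windows are shown for 5 genes that changed with stage and have the highest peak scores among those with a window under a peak, because the RNA and the binding data meet there. Each window runs 250 bases before to 50 after the start (RefSeq, GRCm38.p6, the assembly behind mm10) and is printed 5′ to 3′ on the gene's strand. Capitals mark CCGGAA or its reverse complement TTCCGG, a form of ETS-family site. Other forms of these sites were not searched. Matches on both strands were counted, and overlapping ones separately.
Rab33b, chr3:51483716-51484015, plus strand: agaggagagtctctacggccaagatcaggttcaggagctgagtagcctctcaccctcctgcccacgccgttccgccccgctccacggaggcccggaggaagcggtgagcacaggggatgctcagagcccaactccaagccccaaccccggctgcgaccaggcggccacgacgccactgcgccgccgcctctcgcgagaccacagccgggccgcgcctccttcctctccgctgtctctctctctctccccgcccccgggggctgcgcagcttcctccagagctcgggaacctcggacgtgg
Rab24, chr13:55321931-55322230, minus strand: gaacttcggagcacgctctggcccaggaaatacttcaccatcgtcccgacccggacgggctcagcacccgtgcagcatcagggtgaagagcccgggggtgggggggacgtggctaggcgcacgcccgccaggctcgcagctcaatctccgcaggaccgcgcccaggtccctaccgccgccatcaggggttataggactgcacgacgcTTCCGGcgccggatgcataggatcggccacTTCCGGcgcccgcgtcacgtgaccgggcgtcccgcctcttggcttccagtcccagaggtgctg
Rab8a, chr8:72160950-72161249, plus strand: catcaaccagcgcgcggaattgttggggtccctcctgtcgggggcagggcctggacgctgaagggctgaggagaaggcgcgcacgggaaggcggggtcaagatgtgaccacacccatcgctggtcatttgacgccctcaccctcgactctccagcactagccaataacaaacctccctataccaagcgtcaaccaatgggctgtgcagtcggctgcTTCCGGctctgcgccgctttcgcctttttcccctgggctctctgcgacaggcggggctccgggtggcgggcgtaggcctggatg
Rab5b, chr10:128696219-128696518, minus strand: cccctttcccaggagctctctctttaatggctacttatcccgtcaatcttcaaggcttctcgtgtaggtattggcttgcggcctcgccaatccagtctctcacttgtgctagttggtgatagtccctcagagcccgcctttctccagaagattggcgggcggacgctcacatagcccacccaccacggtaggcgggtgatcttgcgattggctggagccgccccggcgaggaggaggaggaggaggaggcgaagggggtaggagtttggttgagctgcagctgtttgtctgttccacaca
Rab11a, chr9:64737707-64738006, minus strand: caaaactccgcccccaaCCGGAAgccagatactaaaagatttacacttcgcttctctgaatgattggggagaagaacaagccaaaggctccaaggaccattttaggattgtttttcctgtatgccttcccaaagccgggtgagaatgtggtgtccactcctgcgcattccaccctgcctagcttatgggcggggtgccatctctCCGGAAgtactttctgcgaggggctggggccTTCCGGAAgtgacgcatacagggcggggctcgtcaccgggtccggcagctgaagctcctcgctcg
Rab11a held 4 matches, 2 of them overlapping as one palindrome, Rab24 held 2 and Rab8a 1. The windows of Rab33b and Rab5b did not hold this form, and they were not searched for other forms of ETS-family site. A match was present in 14.9% of all 32851 windows, in 41.7% of those overlapping a peak and in 11.2% of those with none. Among windows of Rab genes it was present in 15 of 59 (25.4%), and in 6 of the 13 that overlapped a peak (46.2%).

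Most Rab genes called at E15.5 against E11.5 were higher at E15.5, and they belonged to the Golgi, to endosomes and to vesicle release. At E15.5 against E11.5, 12 Rab genes rose and 3 fell among the 50 tested, against 17.4% rising and 11.48% falling of all 11741 genes (limma on log2(FPKM + 1), adjusted p below 0.05 and at least 1.5-fold). In either direction that is 15 of 50 Rab genes beside 28.9% of all genes. The libraries of the stages did not overlap for 18 of the 50 (36.0%), beside 42.3% of all genes. Their median log2 change was 0.28, beside 0.11 over all genes. After upper quartile scaling 8 rose and 4 fell, and the rises of Rab3c, Rab5b, Rab9 and Rab11b no longer passed (adjusted p 0.0524 to 0.0734). In PN against E15.5, 6 rose and 6 fell, beside 10.6% and 9.55% of all genes (20.2% in either direction), and the libraries did not overlap for 26 of 50, 52.0% beside 42.2%. Across the whole span, PN against E11.5, 10 rose and 1 fell, beside 17.4% and 10.0% (27.4% in either direction), and 16 of 50 did not overlap, 32.0% beside 40.3%. The 3 comparisons share libraries and are not independent.

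**Figure D2:**
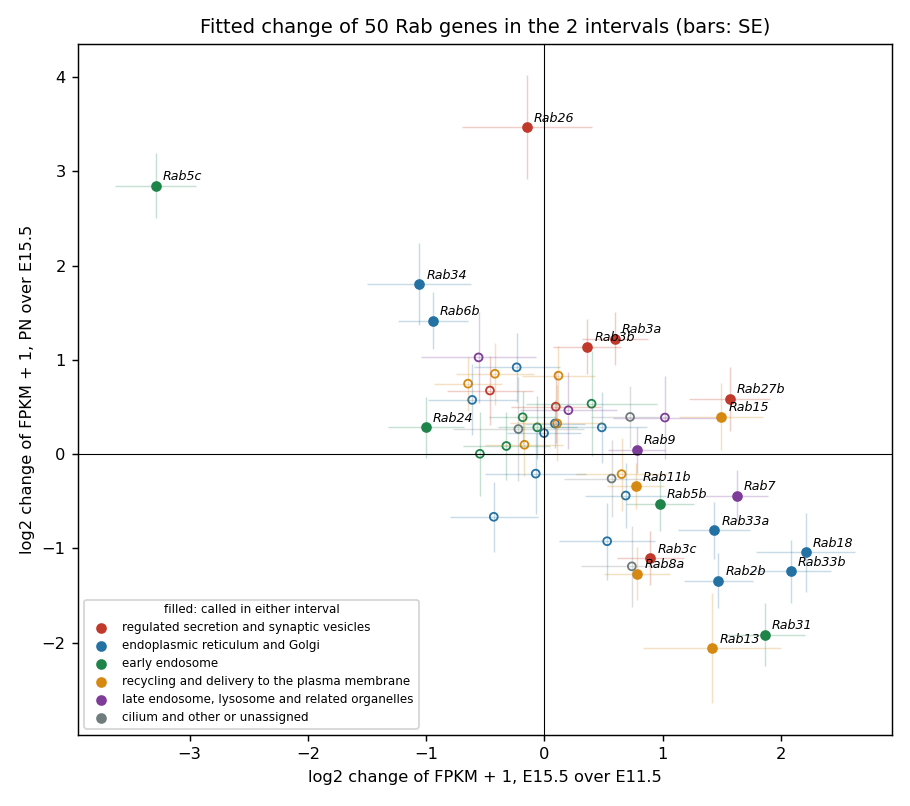
Fitted log2 change of 50 Rab genes at E15.5 over E11.5 (horizontal) and PN over E15.5 (vertical), with standard errors as bars and filled, named points for genes called in either interval. Rab5c stands alone at the left with changes of -3.28 and 2.85, and at the lower right are genes such as Rab31, Rab2b and Rab33b that rose and then fell. The 2 changes share the E15.5 libraries, so an error there moves a point toward the upper left or the lower right.

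Among the 7 tested Rabs of regulated secretion rises outnumbered falls in each comparison, as they did among all genes in this fit, though not under every scaling. At E15.5 against E11.5, 2 rose and 0 fell, beside 17.4% rising and 11.48% falling of all genes. In PN against E15.5, 3 rose and 1 fell, beside 10.6% and 9.55%. In PN against E11.5, 4 rose and 0 fell, beside 17.4% and 10.0%. The same shares stand beside the counts of the other roles below, and no role was tested as a set. Rab3a rose in PN against E15.5 (log2 change of 1.23, SE 0.28, limma adjusted p = 0.00977) and against E11.5 (log2 change of 1.82, SE 0.28, limma adjusted p = 0.000449), and kept both calls without any single library. Rab3b, a paralog that can stand in for Rab3a at synapses, had 24.1, 17.6 and 25.1 FPKM at E11.5, 37.7, 21.7 and 28.4 at E15.5 and 59.0, 60.6 and 73.9 in PN. Every PN library was above every earlier one, and Rab3b rose in PN against E15.5 (log2 change of 1.14, SE 0.29, limma adjusted p = 0.0163) and E11.5 (log2 change 1.502, adjusted p = 0.00204). The first of these calls was lost without E15.5 library b or PN library c (adjusted p 0.059 or more).

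Rab3c took another course from its paralogs. It had 15.6, 12.2 and 13.4 FPKM at E11.5, 26.8, 21.6 and 31.4 at E15.5 and 11.4, 11.2 and 12.6 in PN. The E15.5 libraries lay above all others, and Rab3c rose at E15.5 (log2 change of 0.90, SE 0.28, limma adjusted p = 0.0317) and fell in PN against E15.5 (log2 change of -1.103, SE 0.28, limma adjusted p = 0.0171). Each call was lost without E15.5 library a or c (adjusted p 0.058 or more). The rise was also lost without E11.5 library b or c, and the fall without PN library a or b. Over the 9 fits with 1 library left out, the rise stayed at log2 changes of 0.77 to 1.03. The fall stayed at -1.24 to -0.98. Rab3d, best known from exocrine granules, had 2.09, 4.32 and 6.42 FPKM at E11.5, 4.95, 3.80 and 4.20 at E15.5 and 6.43, 5.32 and 8.003 in PN, and no test called it. As a share of the summed Rab3 FPKM, Rab3a made up 86.7 ± 4.53% at E11.5, 87.1 ± 3.21% at E15.5 and 91.9 ± 2.45% in PN, and Rab3c 4.44 ± 0.938%, 5.79 ± 1.91% and 1.14 ± 0.275% (SD, n = 3 each).

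Rab26 and Rab27b were close to absent early and present later. Rab26, linked to secretory granules and to the clearance of synaptic vesicles by autophagy, had 0, 1.18 and 0 FPKM at E11.5, 0, 0.171 and 0.363 at E15.5 and 16.5, 24.4 and 3.90 in PN, so it reached several FPKM in PN libraries only. It rose in PN against E15.5 (log2 change of 3.47, SE 0.55, limma adjusted p = 0.00146), while the authors' deposited table of the stages did not call it (q = 0.291). Rab27b, which docks and releases secretory granules, had 0.00426, 0.00737 and 0.00485 FPKM at E11.5, 2.04, 0.991 and 3.36 at E15.5 and 3.03, 3.65 and 3.77 in PN. It rose at E15.5 against E11.5 (log2 change of 1.57, SE 0.34, limma adjusted p = 0.0053) and stood higher still in PN, where it overlapped E15.5 and did not pass (log2 change 0.59, adjusted p = 0.246). The authors' deposited stage table did not call the E15.5 rise of Rab27b (q = 0.309), and a pseudocount of 5 FPKM put it at a log2 change of 0.50, under 1.5-fold. Rab27a had 1.60, 0.0468 and 1.17 FPKM at E11.5, 0.371, 0.245 and 0.330 at E15.5 and 0.610, 1.399 and 1.39 in PN and no call.

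**Figure D3:**
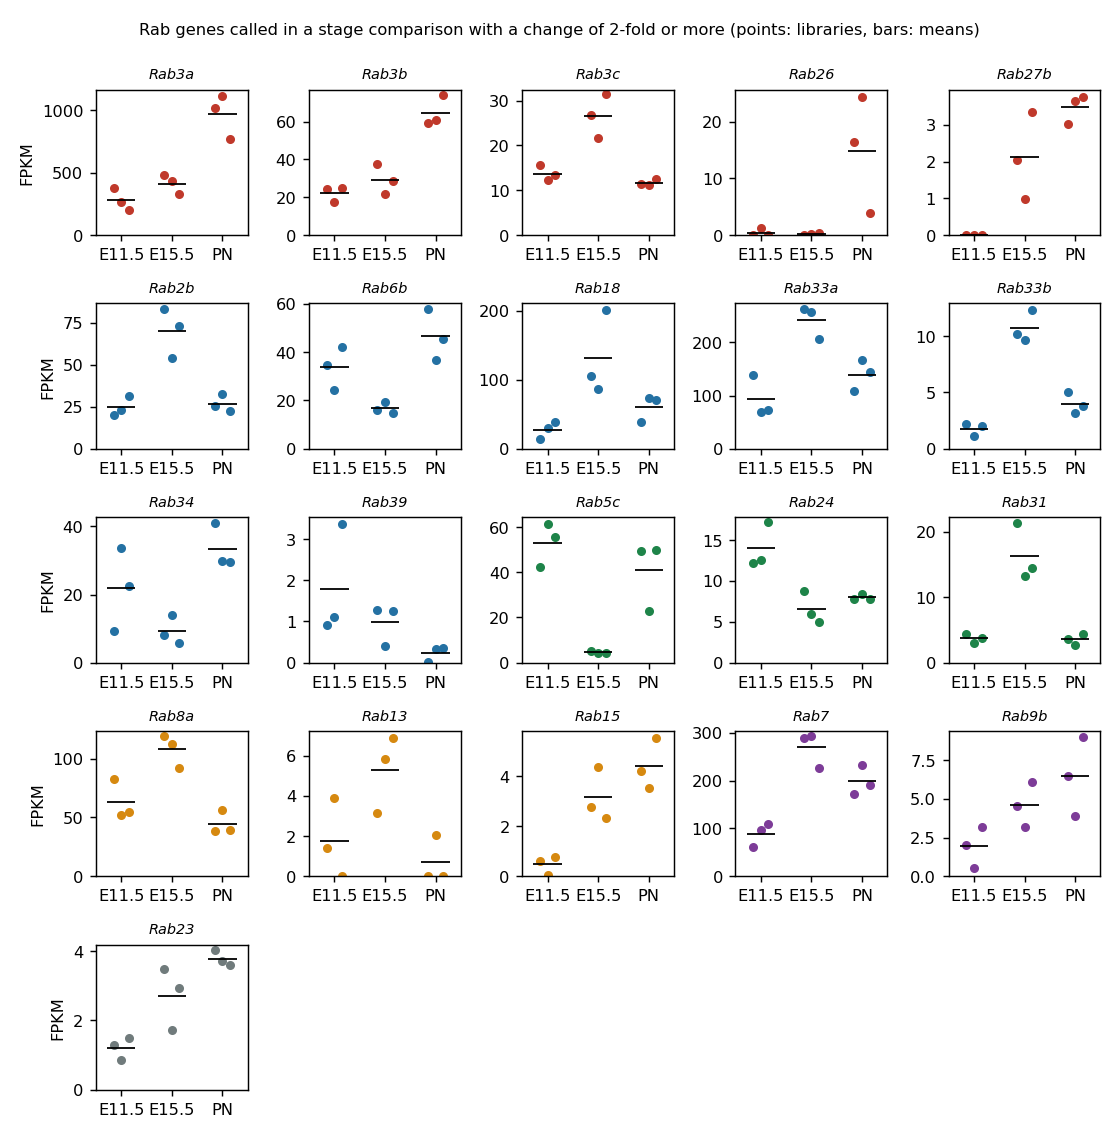
FPKM per library (points) and stage mean (bars) at E11.5, E15.5 and PN for the 21 Rab genes called in a stage comparison with a change of at least 2-fold, each panel on its own scale from 0. Rab3a, Rab3b and Rab26 stand highest in PN, Rab2b, Rab31 and Rab33b at E15.5, and Rab5c is lowest at E15.5.

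Among 15 tested Rabs of the endoplasmic reticulum and Golgi, 4 rose and 1 fell at E15.5 against E11.5, and 2 rose and 2 fell in PN against E15.5. Rab18, of the endoplasmic reticulum and lipid droplets, had 14.3, 29.9 and 39.2 FPKM at E11.5, 105, 86.5 and 202 at E15.5 and 39.1, 73.6 and 71.3 in PN. It rose at E15.5 (log2 change of 2.21, SE 0.42, limma adjusted p = 0.00248). Its PN libraries lay below all E15.5 libraries, a difference that did not pass (log2 change -1.04, adjusted p = 0.0989). Rab33b, a Golgi Rab whose effectors include the autophagy protein Atg16l1, had 2.23, 1.15 and 2.01 FPKM at E11.5, 10.2, 9.68 and 12.3 at E15.5 and 5.02, 3.15 and 3.79 in PN. It rose at E15.5 (log2 change of 2.08, SE 0.34, limma adjusted p = 0.000939) and fell in PN against E15.5 (log2 change of -1.24, SE 0.34, limma adjusted p = 0.0223). The fall was lost without any one E15.5 library or without PN library b or c (adjusted p 0.0522 or more).

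Rab33a, at the levels given above, rose at E15.5 (log2 change of 1.43, SE 0.30, limma adjusted p = 0.00441), and its PN libraries lay below E15.5 with no call (log2 change -0.81, adjusted p = 0.0781). Rab2b, of transport between the endoplasmic reticulum and the Golgi, had 19.9, 23.0 and 31.2 FPKM at E11.5, 83.2, 53.8 and 73.0 at E15.5 and 25.5, 32.7 and 22.5 in PN. No E15.5 library overlapped the other stages, and Rab2b rose at E15.5 (log2 change of 1.47, SE 0.29, limma adjusted p = 0.00324) and fell in PN against E15.5 (log2 change of -1.34, SE 0.29, limma adjusted p = 0.00786), with both calls kept without any single library. Its share of the summed Rab2 FPKM was 26.8 ± 4.42% at E11.5, 50.8 ± 6.35% at E15.5 and 25.6 ± 5.05% in PN, the remainder being Rab2a.

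Rab6b fell at E15.5 and rose afterwards, and Rab34 rose in PN. Rab6b, the neuronal Rab6 of retrograde transport to the Golgi, had 34.7, 24.2 and 41.9 FPKM at E11.5, 16.2, 19.2 and 14.6 at E15.5 and 57.9, 36.7 and 45.4 in PN. It fell at E15.5 against E11.5 (log2 change of -0.94, SE 0.30, limma adjusted p = 0.0331) and rose in PN against E15.5 (log2 change of 1.42, SE 0.30, limma adjusted p = 0.0069). Only the call of the fall was lost on leaving out a library, either any one of E15.5 or E11.5 library a or c (adjusted p 0.0521 or more). Its log2 change stayed between -1.15 and -0.77 in these fits. Rab34, a Golgi-linked Rab that positions lysosomes and takes part in cilium assembly, had 9.34, 33.7 and 22.5 FPKM at E11.5, 8.09, 13.9 and 5.86 at E15.5 and 41.0, 29.8 and 29.6 in PN. Its E15.5 libraries overlapped those of E11.5 and the difference did not pass (log2 change -1.06, adjusted p = 0.0887). It rose in PN against E15.5 (log2 change of 1.80, SE 0.44, limma adjusted p = 0.0137), a call lost without E15.5 library c or PN library a (adjusted p 0.0562 or more). Rab39 had 0.919, 1.098 and 3.36 FPKM at E11.5, 1.29, 0.404 and 1.25 at E15.5 and 0.0134, 0.318 and 0.353 in PN and fell in PN against E11.5 (log2 change of -1.09, SE 0.37, limma adjusted p = 0.0458), a call lost on leaving out any library but E11.5 library a (adjusted p 0.051 or more), without the filter on low values or with a pseudocount of 5 FPKM.

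Rab5c, one of the Rab5 paralogs of the early endosome, had the largest fitted change in log2(FPKM + 1) of the tested Rab genes in the embryonic interval. It had 42.1, 61.5 and 55.5 FPKM at E11.5, 5.31, 4.06 and 4.15 at E15.5 and 49.6, 22.8 and 50.02 in PN. All 3 E15.5 libraries were far below all 6 others. Rab5c averaged 53.0 ± 9.93 FPKM at E11.5, 4.51 ± 0.696 at E15.5 and 40.8 ± 15.6 in PN (SD, n = 3 each); it fell at E15.5 against E11.5 (log2 change of -3.28, SE 0.34, limma adjusted p = 5.4e-05) and rose in PN against E15.5 (log2 change of 2.85, SE 0.34, limma adjusted p = 0.000297). Both calls held without any single library. Rab5b, its paralog, had 6.67, 6.46 and 6.28 FPKM at E11.5, 13.4, 13.03 and 14.7 at E15.5 and 8.94, 10.1 and 8.54 in PN, with the E15.5 libraries above all others. It rose at E15.5 (log2 change of 0.97, SE 0.29, limma adjusted p = 0.0239), a call lost without any one E15.5 library or without E11.5 library b (adjusted p 0.0506 or more). Rab5a did not pass in any stage comparison.

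The make-up of the Rab5 family therefore differed at E15.5. Rab5c made up 75.9 ± 10.0% of the summed Rab5 FPKM at E11.5, 15.3 ± 3.88% at E15.5 and 59.1 ± 10.5% in PN (SD, n = 3 each), and Rab5b 9.59 ± 2.86%, 46.0 ± 6.67% and 14.6 ± 5.62%. In the authors' deposited knockout tables, all made at E15.5, the share of Rab5c was 15.7% in knockout and 13.6% in wild-type neurons with the Clontech kit, and 27.03% in knockout and 27.8% in wild-type neurons with the NuGEN kit. The level of Rab5c itself in the authors' deposited tables was 4.58 FPKM in Clontech and 20.8 FPKM in NuGEN wild-type neurons, so its E15.5 level differed between kits, whose tables were normalised separately. The authors' Clontech wild-type group and the E15.5 stage libraries are close to each other (median FPKM ratio 0.989) and are not independent.

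**Figure D4:**
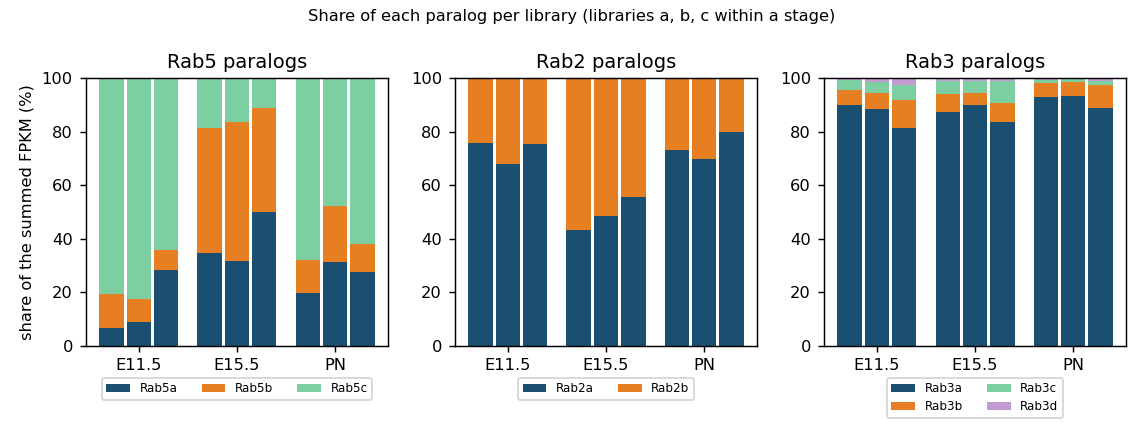
Share of each paralog in the summed FPKM of the Rab5, Rab2 and Rab3 families, as stacked bars in percent, 1 bar per wild-type library from E11.5 to PN. Rab5c holds most of the Rab5 sum at E11.5, less than 20% in each E15.5 library, and again the largest part in PN; Rab2b holds more of the Rab2 sum at E15.5, and Rab3a dominates the Rab3 sum at every stage.

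Among the other Rabs grouped here with the early endosome, Rab31 and Rab24 changed, so that of 9 tested 2 rose and 2 fell at E15.5. The 2 falls were those of Rab5c and Rab24, and the place of Rab24 in this group is a choice of the role list. Rab31, which carries cargo between the trans-Golgi network and endosomes, had 4.37, 2.96 and 3.81 FPKM at E11.5, 21.3, 13.2 and 14.46 at E15.5 and 3.54, 2.74 and 4.37 in PN. The E15.5 libraries lay well above the rest; Rab31 rose at E15.5 (log2 change of 1.86, SE 0.34, limma adjusted p = 0.00185) and fell in PN against E15.5 (log2 change of -1.92, SE 0.34, limma adjusted p = 0.00267), and both calls held without any single library. The summed astrocyte and radial glia markers were also higher in every E15.5 than in every E11.5 library, and their part in the course of Rab31 was not tested. Rab24, an atypical Rab tied to autophagy, had 12.2, 12.6 and 17.2 FPKM at E11.5, 8.77, 5.88 and 4.99 at E15.5 and 7.81, 8.41 and 7.78 in PN. It fell at E15.5 (log2 change of -1.004, SE 0.32, limma adjusted p = 0.0339), a call lost without library b or c of either E11.5 or E15.5 (adjusted p 0.0549 or more).

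Rabs of recycling and delivery to the plasma membrane rose or fell one by one. Of 10 tested, 2 rose at E15.5 and 2 fell in PN against E15.5. Rab15, which slows recycling from early endosomes and is enriched in neurons, had 0.615, 0.0539 and 0.784 FPKM at E11.5, 2.76, 4.37 and 2.35 at E15.5 and 4.21, 3.52 and 5.55 in PN. All E11.5 libraries lay below 1 FPKM; Rab15 rose at E15.5 (log2 change of 1.49, SE 0.36, limma adjusted p = 0.00866) and stood higher in PN than at E11.5 (log2 change 1.89, adjusted p = 0.00183). With a pseudocount of 5 FPKM the E15.5 rise of Rab15 was 0.57 on the log2 scale, under 1.5-fold. Rab8a, which delivers vesicles from the Golgi to the plasma membrane and the cilium, had 82.9, 52.2 and 54.8 FPKM at E11.5, 119.5, 112 and 92.0 at E15.5 and 38.3, 56.7 and 39.1 in PN. The E15.5 libraries lay above all others; the rise just missed the threshold (log2 change 0.78, adjusted p = 0.0519), and Rab8a fell in PN against E15.5 (log2 change of -1.27, SE 0.28, limma adjusted p = 0.00829).

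Rab13, known from tight junctions and neurite growth, had 1.395, 3.87 and 0 FPKM at E11.5, 3.13, 5.81 and 6.89 at E15.5 and 0, 2.06 and 0 in PN. It fell in PN against E15.5 (log2 change of -2.06, SE 0.59, limma adjusted p = 0.0274), a call lost without E15.5 library b or c or PN library a or c (adjusted p 0.0761 or more) and absent from the authors' deposited stage table (q = 0.384). Rab11b, a paralog of Rab11a of the recycling endosome, averaged 103 ± 9.37 FPKM at E11.5, 179 ± 41.8 at E15.5 and 139 ± 13.9 in PN (SD, n = 3 each) and rose at E15.5 (log2 change 0.77, adjusted p = 0.0319). That call was lost without E11.5 library b or c or E15.5 library a or c (adjusted p 0.0502 or more). Rab11a rose in PN against E11.5 (log2 change of 0.95, SE 0.31, limma adjusted p = 0.0376). It lost this call without E11.5 library b or c or PN library b or c, and under upper quartile scaling (adjusted p 0.0567).

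The calls among the Rabs of late endosomes and lysosomes were rises of Rab7, Rab9 and Rab9b, and only those of Rab7 held without any single library. Of 5 tested, 2 rose at E15.5 against E11.5 and 3 in PN against E11.5, each beside 17.4% of all genes. None fell in these or in PN against E15.5. Rab7 rose at E15.5 (log2 change of 1.62, SE 0.27, limma adjusted p = 0.00108) and stood above E11.5 in PN (log2 change of 1.18, SE 0.27, limma adjusted p = 0.00599); its E15.5 and PN libraries overlapped, and both calls held without any single library. Rab9, of transport from late endosomes to the Golgi, averaged 35.9 ± 3.27 FPKM at E11.5, 62.3 ± 4.81 at E15.5 and 64.8 ± 9.33 in PN (SD, n = 3 each). Rab9 rose at E15.5 (log2 change 0.78, adjusted p = 0.0313) and in PN against E11.5 (log2 change 0.83, adjusted p = 0.0238). The first call was lost without library a or b of either E11.5 or E15.5, the second without E11.5 library b or PN library b or c (adjusted p 0.0622 or more). Rab9b had 2.03, 0.551 and 3.21 FPKM at E11.5, 4.51, 3.21 and 6.08 at E15.5 and 6.49, 3.93 and 8.98 in PN and rose in PN against E11.5 (log2 change of 1.41, SE 0.44, limma adjusted p = 0.0316), a call lost without E11.5 library b or PN library a or c (adjusted p 0.0828 or more).

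In the last group, of 4 tested Rabs linked to the cilium or to no settled step, Rab23 alone was called. Rab23, a brake on Hedgehog signalling, had 1.29, 0.858 and 1.495 FPKM at E11.5, 3.47, 1.71 and 2.94 at E15.5 and 4.03, 3.70 and 3.58 in PN and rose in PN against E11.5 (log2 change of 1.12, SE 0.33, limma adjusted p = 0.0248). The PN libraries lay above all earlier ones, but the call was lost without E11.5 library b or any one PN library (adjusted p 0.0621 or more).

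The later interval was also set against the earlier one in the same fit, which tests whether the 2 changes differ, not whether the direction turned. It was the higher in 4 Rab genes and the lower in 10, beside 9.62% and 13.0% of all genes, together 22.6%. Rab5c differed most, by 6.13 on the log2 scale (SE 0.59, limma adjusted p = 8.63e-05), followed upward by Rab26, Rab34 and Rab6b. Downward it was Rab31 by -3.78, then Rab13, Rab33b and Rab18, with Rab2b, Rab33a, Rab7, Rab8a, Rab3c and Rab5b. These calls held without any single library for Rab5c, Rab6b, Rab2b, Rab31, Rab33b and Rab7; the other 8 were lost on leaving out at least one, most often an E15.5 library. Rab2b, Rab3c, Rab31 and Rab33b rose and then fell with both changes called (4 of 50, beside 4.85% of all genes), and Rab5c and Rab6b fell and then rose (2 of 50, beside 3.06%).

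Over the whole list of proteins that handle Rabs, the shares called lay near or under those of all genes, a difference that was not tested. Of 121 listed genes 97 were tested; 14 rose and 9 fell at E15.5 against E11.5 (14.4% and 9.28%, beside 17.4% and 11.48% of all genes), 8 rose and 4 fell in PN against E15.5 (8.25% and 4.12%, beside 10.6% and 9.55%), and 9 rose and 6 fell in PN against E11.5 (9.28% and 6.19%, beside 17.4% and 10.0%). Among 7 tested genes of prenylation, extraction and delivery, 5 rose at E15.5 and none fell, and the count was the same under upper quartile scaling and median centring. It was 4 without E11.5 library c or E15.5 library a or b, and 4 of 8 tested without the filter on low values. Among the 5 were Gdi2, which extracts Rabs from membranes, and Rabif, which binds Rabs free of nucleotide. Rabac1, the prenylated Rab acceptor, had 531, 344 and 246 FPKM at E11.5, 362, 293 and 125 at E15.5 and 1484, 1816 and 729.8 in PN and rose in PN against E15.5 (log2 change of 2.40, SE 0.44, limma adjusted p = 0.00315).

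Of 33 tested effectors 4 rose and 4 fell at E15.5 (12.1% each, beside 17.4% and 11.48% of all genes), and 5 rose and 2 fell in PN against E15.5 (15.2% and 6.06%, beside 10.6% and 9.55%). With 1 library left out, 2 to 3 effectors rose and 2 to 4 fell at E15.5. In PN against E15.5, 2 to 6 rose and 0 to 2 fell in these fits. Rph3a, rabphilin, a partner of Rab3 and Rab27 on vesicles, had 0.0576, 0.0851 and 0.794 FPKM at E11.5, 3.75, 5.73 and 2.67 at E15.5 and 10.5, 6.499 and 7.67 in PN; it rose at E15.5 (log2 change of 1.94, SE 0.38, limma adjusted p = 0.00286) and in PN against E11.5 (log2 change 2.83, adjusted p = 0.000174). Rilp, which ties Rab7 to the dynein motor, had 0.0397, 1.99 and 1.52 FPKM at E11.5, 0, 1.41 and 0.0167 at E15.5 and 12.51, 20.00 and 8.91 in PN and rose in PN against E15.5 (log2 change of 3.39, SE 0.50, limma adjusted p = 0.00098). Osbpl1a, another Rab7 effector, rose at E15.5 (log2 change 2.49, adjusted p = 0.000322), and Optn, a Rab8 effector, rose in PN against E15.5 (log2 change 2.19, adjusted p = 0.00863). The microglia and macrophage markers rose in the same comparison, 7 of 8 tested, and their part in these PN changes was not tested. The 27 tested exchange factors gave 3 rises and 3 falls at E15.5 (11.1% each). Dennd1c, an exchange factor for Rab35, fell most (log2 change -3.02, adjusted p = 0.00118). The 30 GTPase activating proteins gave 2 rises and 2 falls (6.67% each), with Sgsm3 highest (log2 change 2.09, adjusted p = 0.00114).

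At E15.5 the authors' tables called 0 Rab genes between Pet-1 knockout and wild-type neurons with the Clontech kit and 7 with the NuGEN kit. Fev, the targeted gene, had 0.422 FPKM in knockout and 31.1 FPKM in wild-type neurons in the authors' deposited Clontech table, and 0.308 and 34.9 FPKM in knockout and wild-type neurons in their NuGEN table. In the authors' deposited Clontech table (q below 0.05, at least 1.5-fold, at least 1 FPKM in a group) 0 of 47 Rab genes were called, beside 2.82% of all genes, and 5 had an unadjusted p below 0.05, where 16.9% of all genes did. Among 48 Rab genes in the authors' deposited NuGEN table, 3 rose and 4 fell, beside 12.7% of all genes (8.19% higher and 4.56% lower). The Clontech wild-type libraries are those of the stage series, so that comparison is not independent of the stage tests.

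The rises in the authors' deposited NuGEN table were Rab3b, Rab12 and Rab33a. Rab3b had 40.4 FPKM in knockout and 21.0 FPKM in wild-type neurons (log2 0.95, q = 0.00206) in the authors' deposited NuGEN table, and 37.6 FPKM in knockout and 31.7 FPKM in wild-type neurons (log2 0.25, q = 0.546) in their Clontech table. Rab33a had 281 FPKM in knockout and 178 FPKM in wild-type neurons (log2 0.66, q = 0.0362) in the authors' deposited NuGEN table, and 243 FPKM in knockout and 224 FPKM in wild-type neurons (log2 0.12, q = 0.816) in the Clontech one. Rab12, which directs recycling endosome cargo to lysosomes, had 16.9 FPKM in knockout and 10.6 FPKM in wild-type neurons (log2 0.68, q = 0.0492) in the authors' deposited NuGEN table and 16.5 FPKM in knockout and 9.41 FPKM in wild-type neurons (log2 0.81, q = 0.0571) in the Clontech table. It was thus past 1.5-fold upward in both kits, with the Clontech q just over the threshold.

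Rab36, Rab31, Rab9b and Rab5b fell in the authors' deposited NuGEN table. Rab36, a Golgi-linked Rab close in sequence to Rab34, had 5.79 FPKM in knockout and 11.3 FPKM in wild-type neurons (log2 -0.97, q = 0.00473) there and 10.8 FPKM in knockout and 17.1 FPKM in wild-type neurons (log2 -0.67, q = 0.123) in the authors' deposited Clontech table, past 1.5-fold downward in both kits. Rab31 had 20.4 FPKM in knockout and 33.5 FPKM in wild-type neurons (log2 -0.71, q = 0.029) in the authors' deposited NuGEN table and 13.2 FPKM in knockout and 17.1 FPKM in wild-type neurons (log2 -0.37, q = 0.398) in the Clontech table. Rab5b had 28.2 FPKM in knockout and 45.5 FPKM in wild-type neurons (log2 -0.69, q = 0.0392) in the authors' deposited NuGEN table but 17.6 FPKM in knockout and 16.7 FPKM in wild-type neurons (log2 0.07, q = 0.93) in the Clontech table. Rab9b likewise had 6.96 FPKM in knockout and 11.3 FPKM in wild-type neurons (log2 -0.69, q = 0.0492) in the authors' deposited NuGEN table and 6.09 FPKM in knockout and 5.19 FPKM in wild-type neurons (log2 0.23, q = 0.735) in the Clontech table. Rab5b and Rab9b thus stood lower in knockout neurons with the NuGEN kit only, and 25 of 47 Rab genes had the same direction in both kits. The share of all genes with the same direction, or past 1.5-fold the same way in both kits, was not computed.

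Rab3a, the most abundant, had 413 FPKM in knockout and 414 FPKM in wild-type neurons (log2 -0.00, q = 0.997) in the authors' deposited Clontech table and 279 FPKM in knockout and 278 FPKM in wild-type neurons (log2 0.01, q = 0.987) in the NuGEN table. The summed astrocyte and radial glia markers of the authors' deposited tables were 487 FPKM in knockout and 1380 in wild-type neurons with Clontech. With NuGEN they were 307 in knockout and 161 in wild-type neurons, so the sums moved opposite ways in the kits. By gene, 4 of these markers were called lower with Clontech, and 1 higher and 1 lower with NuGEN. Their part in the Rab differences was not tested. Of the regulators and effectors none was called in the authors' deposited Clontech table and 1, Tbc1d15, a GTPase activating protein for Rab7, fell in the NuGEN table (7.06 FPKM in knockout and 11.6 in wild-type neurons, log2 -0.71, q = 0.0321). Of the 7 NuGEN calls only Rab5b had a mycPet-1 peak within 5 kb of its start site or in its gene span. Of all tested genes 36.7% had one. Within 50 kb Rab3b and Rab31 had one too, beside 57.0% of all genes.

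**Figure D5:**
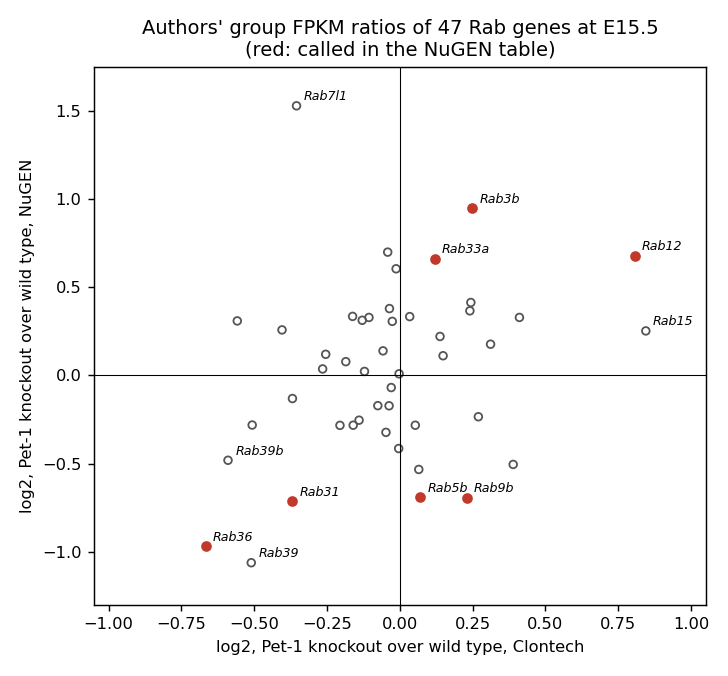
Log2 ratio of group FPKM, Pet-1 knockout over wild type at E15.5, for 47 Rab genes in the authors' Clontech table (horizontal) and NuGEN table (vertical), with the 7 NuGEN calls in red. Rab12 lies at the upper right and Rab36 at the lower left of the cloud, while Rab3b and Rab33a are at 0.95 and 0.66 in the NuGEN table and at 0.25 and 0.12 in the Clontech table.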

How the data were processed

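Messenger RNA was measured in sorted EYFP-positive 5-HT neurons, 3 libraries per group, and mycPet-1 binding in 1 immunoprecipitation with 1 input. The submitters' processing notes name the tools TopHat2, Cufflinks, BWA and MACS 1.4.2, besides mm9 and mm10, without saying what each was used for. The authors deposited FPKM, a fragment count corrected for transcript length and for library size, with a column for each library of the stages and a column for each group of the knockout. The authors' deposited knockout and stage tables also hold log2 fold changes, p-values and q-values per gene, per the file headers. Each peak has a score in the list the authors deposited. Rescaling between libraries is not stated in the labels or headers. The matrix holds 3 further columns that could be tied to no sample; these were set aside. Columns carry no replicate number, so letters a to c follow column order.

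Stage differences were fitted to log2(FPKM + 1), a scale that understates low genes, in 1 limma model (3.58.1, R 4.3.3) of 9 libraries with a mean-variance trend. A gene entered when 3 or more libraries reached 1 FPKM (11741 genes did), and 14 genes with failed estimates were left out. A call needs a Benjamini-Hochberg adjusted p below 0.05 over all tested genes and at least 1.5-fold. The step was tested on simulated data. Knockout calls use the authors' q below 0.05, at least 1.5-fold and 1 FPKM in a group, and the kits' tables, normalised separately, were not tested against each other. Peaks were matched to RefSeq GRCm38.p6 genes, and the file symbols Rab1, Rab6 and Rab7l1 to RefSeq Rab1a, Rab6a and Rab29. Depth is unknown, so no counting error is given; replicate libraries had Pearson correlations of 0.903 to 0.966, and libraries of different stages 0.794 to 0.888.

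Values per library are given for Rab genes called with a change of at least 2-fold, all Rab3 and Rab27 genes and the 5 highest; knockout values for those called in a table or past 1.5-fold the same way in both. A few others are named where a statement turns on them. At most the 3 called regulators with the largest change per direction, class and comparison are named. One item is not reported here. The Rab genes, the roles, the regulators and the marker lists (serotonin neurons, neurons, microglia, astrocytes, oligodendrocyte lineage, endothelium and blood) were chosen with earlier results of these data known. The neuron markers summed to 1224 to 1778 FPKM at E11.5, 1658 to 2225 at E15.5 and 1842 to 2373 in PN. Most of this sum was Stmn2, while Snap25 averaged 35.55, 274.4 and 282.5 FPKM. The oligodendrocyte lineage markers summed to 6.10 to 12.55 FPKM at E11.5, 14.58 to 71.8 at E15.5 and 13.04 to 16.04 in PN. Of 3 tested, 2 rose and 0 fell at E15.5 against E11.5. Endothelium markers summed to 0 to 0.761, 3.40 to 5.18 and 0.672 to 2.435 FPKM at these stages. Blood markers summed to 0 to 0.667, 10.04 to 47.8 and 0.332 to 1.377 FPKM. Alternatives were the pseudocount, the filter, the scaling, the trend, the fold minimum, the authors' stage test, each library left out, and the peak distance and score.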

Additional observations from a re-analysis of the deposited data

How the results depend on the processing

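No paired analysis was possible because the columns carry no replicate number of the labels. No stage result changed direction. The authors' stage test, which covers adjacent stages only, gave 6 falls at E15.5 (3 here) and 10 rises in PN against E15.5 (6 here). In PN against E11.5 a filter at 5 FPKM left 6 rises (10 here), and that filter, no filter or a pseudocount of 5 FPKM left 0 falls (1 here). No filter gave 2 genes with a higher later interval (4 here). Leaving out 1 library gave 8 to 13 rises and 1 to 3 falls at E15.5, 5 to 7 rises and 3 to 9 falls in PN against E15.5, 6 to 11 rises and 0 to 1 falls in PN against E11.5, and 2 to 5 higher and 6 to 10 lower later intervals. At the authors' unadjusted p below 0.05, with the 1.5-fold and 1 FPKM limits kept, 2 rises and 2 falls passed in their Clontech table. In the NuGEN one 6 rises passed (3 at q below 0.05), and Rab39 (log2 -1.06) joined the 4 falls. The share of all genes was not computed at this setting. At 2-fold the NuGEN table gave 0 rises and 0 falls. With an unadjusted p below 0.05 and no fold limit, 14 of 48 Rab genes pass there (29.2%, beside 28.3% of all genes). Peaks within 50 kb reached 26 Rab genes (13 at 5 kb), among them 22 of 50 tested (44.0%, beside 57.0% of all genes). A pseudocount of 5 FPKM put the E15.5 rises of Rab15 (log2 0.57) and Rab27b (0.50) and the PN rise of Rab23 over E11.5 (0.50) under 1.5-fold, and ended the call of Rab39. Without the filter on low values the fall of Rab13 and the calls of Rab9b, Rab11a and Rab39 in PN against E11.5 were lost (adjusted p 0.074 to 0.0938), as was that of Rab13 with a pseudocount of 0.1 FPKM (0.065). Without the mean-variance trend Rab9 and Rab11b at E15.5 and Rab11a in PN against E11.5 were lost (0.0504 to 0.0645), and with median centring Rab11a (0.0579). In the comparison of the intervals, Rab13 and Rab26 were lost without the filter or with a pseudocount of 0.1 FPKM, Rab34 without the filter and Rab5b under upper quartile scaling (0.0562 to 0.0983). Upper quartile scaling changed the whole-table calls at E15.5 to 1659 rises and 1688 falls (2046 and 1348 here), and those in PN against E15.5 to 1358 and 976 (1249 and 1121 here). Median centring changed the latter to 1100 rises and 1336 falls. The unknown depth limits most the genes under a few FPKM, such as Rab13, Rab27a and Rab39.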
